A study of Mus musculus with 20 samples.

Results

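The interleukin-1 family genes of the mouse colon were followed through a model of colitis-associated cancer with and without the traditional Chinese medicine formula Pien Tze Huang (PZH). 10 genes were chosen by name, for their place in the IL-1, IL-33 and IL-18 systems, out of 32991 genes with a summed value. They were the cytokines Il1a, Il1b, Il33 and Il18, the receptor chains Il1r1, Il1rap and Il1rl1, and the decoys and antagonists Il1r2, Il1rn and Il18bp. All 10 were present in the files of all 20 mice.

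The design held 4 groups of 5 mice, and each mouse gave 1 colon library. Mice of the Control and Model groups received distilled water by gavage, and mice of the PZH and Model + PZH groups received PZH at 250 mg/kg per day, in all cases over 91 days. In the Model and Model + PZH groups the carcinogen azoxymethane (AOM, 12.5 mg/kg) was injected into the peritoneum on the first day, and after 7 days the colitis-inducing polymer dextran sulfate sodium (DSS, 2%) was given in the drinking water for 5 days, followed by 2 weeks of plain water, for 4 cycles in all. The study describes the animals as male C57BL/6 mice bought from a breeder. Their age is not in the labels, which name no engineered allele. Whether a Model library came from tumour or from the tissue beside it is not given in the sources used here.

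IL-1α and IL-1β are alarm cytokines that act through the receptor IL-1R1 with its partner chain IL-1RAP, and their signal runs through MyD88 to NF-κB. IL-33, a nuclear cytokine released from damaged barrier cells, uses the receptor ST2, encoded by Il1rl1, with the same partner chain. IL-18 comes largely from the gut epithelium and is held in check by the secreted protein IL-18BP. IL-1Ra, encoded by Il1rn, occupies IL-1R1 without signalling, and IL-1R2 binds IL-1 without a signalling tail.

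Values were FPKM, fragments per kilobase of transcript scaled to the size of the library, summed over the annotated transcripts of a gene, so they are per length and can be set side by side between genes. The depth was estimated at 15334000 to 19462000 fragments per library. The tissue label says colon, although the extraction text of the labels names the abdominal aorta. The epithelial markers of the colon summed to between 3267 and 9339 FPKM in the 20 mice. Squamous epithelium markers, which belong to skin or the anal margin, summed to 535 and 411 FPKM in Control mice 17 and 50 and to at most 75.2 FPKM in the other 18 mice. The differences of the members from Control are therefore also given without these 2 mice where they moved. An FPKM of 0 can be a lost estimate, and a low value can be too low, since newly assembled transcripts with no gene name are not in the sums. Gapdh, a gene every cell uses, fell to 1.56 FPKM in 1 mouse, and where its reads went was not traced. Genes with a value of 0 are described below as listed at 0.

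Il1r2 (chr1:40074079-40125231), Il1r1 (chr1:40225080-40317257) and Il1rl1 (chr1:40429570-40465415) lie in 1 cluster on the plus strand of chromosome 1 in the mm10 assembly. Il1a (chr2:129299610-129309972) and Il1b (chr2:129364570-129371139) are neighbours on the minus strand of chromosome 2, which also holds Il1rn (chr2:24336853-24351494). Il1rap lies on chromosome 16 (chr16:26581704-26730117), Il33 on chromosome 19 (chr19:29925114-29960718), Il18 on chromosome 9 (chr9:50554827-50581840) and Il18bp on chromosome 7 (chr7:102014885-102018690). 7 of the 10 genes share their position with another annotated gene, such as Il1bos opposite Il1b, Bco2 and Tex12 opposite Il18 and Numa1 opposite Il18bp. Whether strand was used in the counting is not given in the sources used here, so reads of such partners cannot be told apart.

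Some of the genes make proteins of different fate from 1 locus. The coding sequences of Il1rl1 and Il1rn are shown because the results below separate their forms. Il1rap also has a soluble form (Il1rap-206, 360 codons), which is not treated separately below. The sequences are those of GENCODE M21 on GRCm38, read 5′ to 3′, with bases common to both forms of a gene in lower case and the bases at which the forms part in capitals. The soluble form of Il1rl1 (Il1rl1-203, 337 codons) and the membrane form (Il1rl1-202, 567 codons) share their first 985 coding bases. The soluble form then reads 29 bases of its own to a stop, while the membrane form continues into the transmembrane and signalling part, of which the first 36 bases are shown.
Il1rl1-203, soluble: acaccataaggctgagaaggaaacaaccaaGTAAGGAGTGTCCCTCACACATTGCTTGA
Il1rl1-202, membrane: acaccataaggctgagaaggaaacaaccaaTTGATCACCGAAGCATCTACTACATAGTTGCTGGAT
The antagonist gene Il1rn differs at the other end of the protein. The intracellular form (Il1rn-204, 159 codons) starts with 5 bases of its own. The secreted form (Il1rn-201, 178 codons) starts with 62 bases of its own, which include the start of the signal peptide. Both forms share the other 475 coding bases.
Il1rn-204, intracellular: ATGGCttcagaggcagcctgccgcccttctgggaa
Il1rn-201, secreted: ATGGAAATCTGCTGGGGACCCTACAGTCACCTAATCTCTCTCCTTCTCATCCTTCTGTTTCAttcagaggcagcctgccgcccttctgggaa

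Il1a, Il1b and Il33 were higher in all Model mice than in any Control mouse, and their promoters are shown for that reason, from RefSeq on GRCm38.p6, with 250 bases before and 50 bases after the annotated start. Il33 has 2 annotated starts, and both are shown since its transcripts from them differed between mice. 3 motifs were searched on both strands: TATAAA, the AP-1 motif TGANTCA and the NF-κB motif (GGG, any 5 bases, CC). Capitals mark the matches.
Il1a, chr2:129309923-129310222, minus strand: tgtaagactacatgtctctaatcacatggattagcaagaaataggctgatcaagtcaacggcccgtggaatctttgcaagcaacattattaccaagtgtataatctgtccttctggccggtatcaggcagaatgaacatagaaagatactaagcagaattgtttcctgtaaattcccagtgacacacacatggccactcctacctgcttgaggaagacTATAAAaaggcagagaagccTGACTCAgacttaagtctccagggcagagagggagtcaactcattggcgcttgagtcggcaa
Il1b, chr2:129371090-129371389, minus strand: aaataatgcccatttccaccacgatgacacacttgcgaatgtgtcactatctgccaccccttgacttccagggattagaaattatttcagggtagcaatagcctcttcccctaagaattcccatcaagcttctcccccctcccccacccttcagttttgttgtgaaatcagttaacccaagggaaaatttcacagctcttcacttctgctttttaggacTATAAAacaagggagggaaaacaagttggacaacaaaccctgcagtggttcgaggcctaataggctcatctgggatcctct
Il33, first start, chr19:29924863-29925162, plus strand: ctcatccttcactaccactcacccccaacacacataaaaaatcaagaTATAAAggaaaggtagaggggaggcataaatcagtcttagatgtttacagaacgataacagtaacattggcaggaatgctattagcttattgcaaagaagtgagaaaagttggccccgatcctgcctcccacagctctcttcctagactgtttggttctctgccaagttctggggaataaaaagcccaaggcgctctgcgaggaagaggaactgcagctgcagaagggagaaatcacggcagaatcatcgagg
Il33, second start, chr19:29945540-29945839, plus strand: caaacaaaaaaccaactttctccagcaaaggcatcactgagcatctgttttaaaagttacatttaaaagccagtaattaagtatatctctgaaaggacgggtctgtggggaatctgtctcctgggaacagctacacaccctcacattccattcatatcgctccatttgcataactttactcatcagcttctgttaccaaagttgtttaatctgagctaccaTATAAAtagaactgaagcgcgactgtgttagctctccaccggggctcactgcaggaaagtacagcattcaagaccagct
TATAAA began 32 bases before the start of Il1a, 31 bases before that of Il1b and 29 bases before the second start of Il33. At the first start of Il33 it stood 203 bases upstream. TATAAA occurred in 6 of the 15 promoters of the 10 genes and in 13.6% of all 32851 promoters of that length. The AP-1 motif occurred in 2 of the 15, those of Il1a and of the intracellular form of Il1rn, and in 7.8% of all promoters. The NF-κB motif occurred in 5 of the 15 and in 50.8% of all promoters. These matches are letters in a window and no evidence of binding.

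In Control colon the members covered a wide range of levels. Il18 was the highest, with a median of 67.7 FPKM, followed by Il1rn with 31.6 FPKM. The single mice of these genes did not overlap with each other or with the next gene. Il1r1, Il1rap, Il33, Il1b, Il1rl1, Il18bp, Il1a and Il1r2 followed in that order from 4.02 FPKM down to a median of 0, and each neighbour in this order overlapped with the next. In the Model group Il1b stood first with a median of 50.1 FPKM, before Il18 (31.6 FPKM), Il1rl1 (29.3 FPKM), Il1rn (17.2 FPKM), Il33 (12.8 FPKM), Il1a (4.92 FPKM), Il1r2 (4.23 FPKM), Il1r1 (4.22 FPKM), Il1rap (3.75 FPKM) and Il18bp (1.37 FPKM). The first 4 overlapped from neighbour to neighbour, as did the genes from Il1a to Il1rap, while the mice of Il33 were separate from both neighbours and Il18bp was separate from Il1rap.

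**Figure D1:**
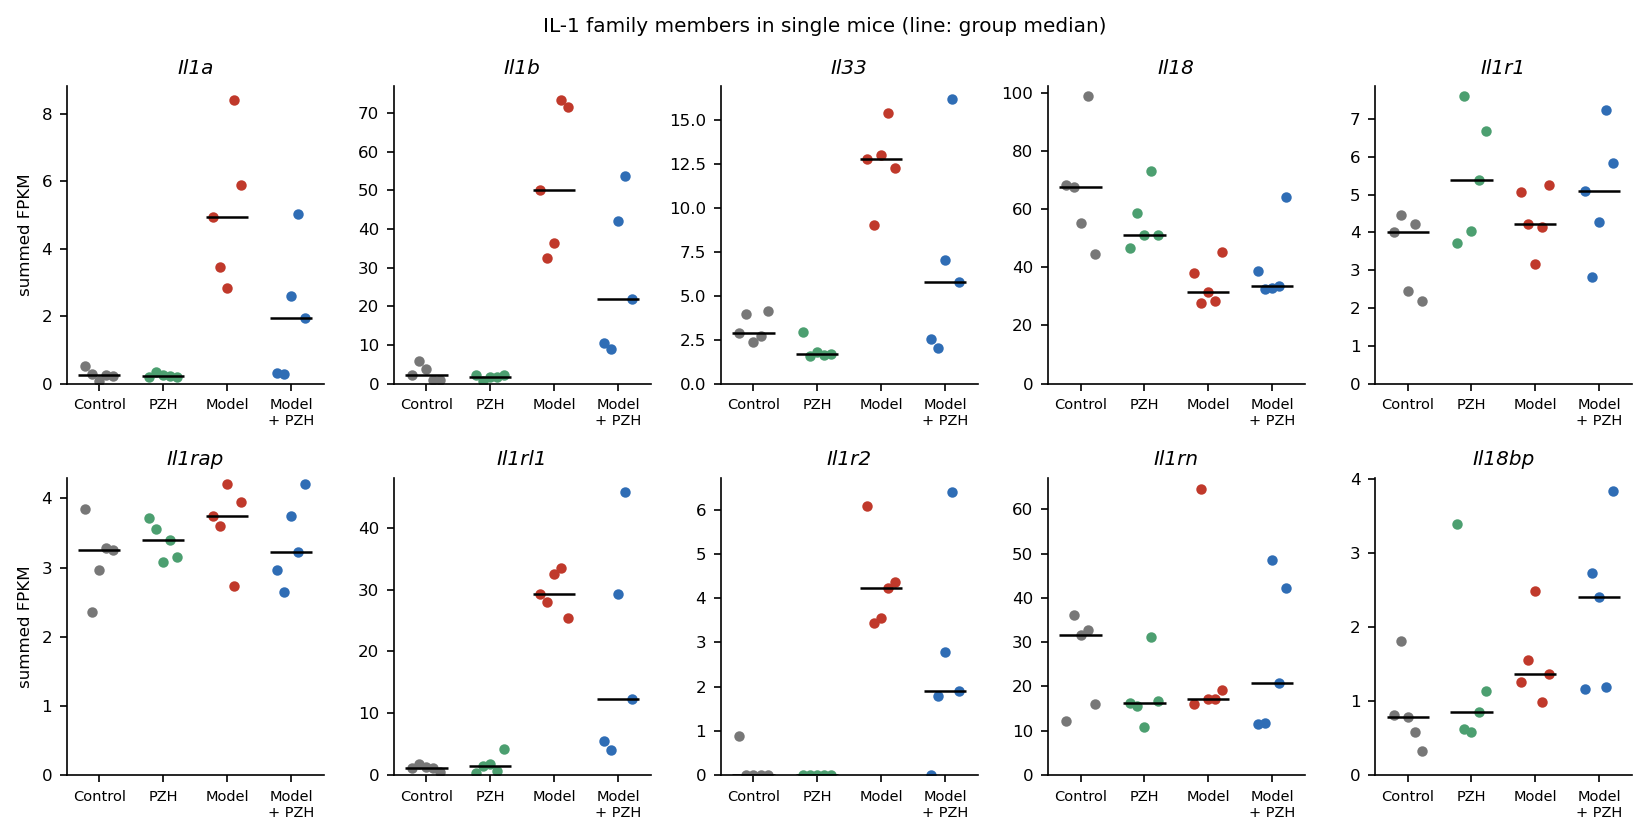
Summed FPKM (linear axis from 0) of the 10 members in the 5 mice of each group, with 1 point per mouse and a line at the group median. Il1a, Il1b, Il33, Il1rl1 and Il1r2 sit higher in all 5 Model mice than in any Control mouse, and they spread widely in the Model + PZH group. All 5 Model + PZH mice lie above the highest Control mouse for Il1b and Il1rl1, but not for Il1a, Il33 and Il1r2. Mouse 35 of that group lies above the highest Model mouse for Il33, Il1rl1 and Il1r2.

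The comparison of Model with Control asked what AOM/DSS changed. Il1b, Il33 and Il1rl1 rose, Il18 fell, and Il1r1, Il1rap, Il1rn and Il18bp did not pass the test. Il1a and Il1r2 were also higher in all Model mice than in any Control mouse. Both reached 0.5 FPKM in all 5 Model mice but in only 1 Control mouse, so they passed the filter on low values only through the group where they are high, and their levels are given as a description with no test. Of the other 8 members 4 had an adjusted P under 0.05 in limma, 3 as higher and 1 as lower. Over all 15812 tested genes, which include others that passed the filter through 1 group, 23.6% were called, 16.4% as higher and 7.23% as lower. The 3 members that rose did not overlap with Control, as did 13% of all tested genes in that direction. The median log2 difference was 0.38 over these 8 members and 0.09 over all tested genes.

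Il1b, which encodes the main secreted IL-1, was at 2.29, 5.91, 3.66, 0.85 and 0.85 FPKM in the Control mice and at 50.14, 32.49, 36.32, 73.41 and 71.67 FPKM in the Model mice. The lowest Model mouse was above the highest Control mouse by a wide margin. The log2 difference was 3.97 ± 0.39 (SE, adjusted P = 6.64e-05). Il1a, the cell-bound alarm form of IL-1, was at 0.52, 0.28, 0.08, 0.25 and 0.22 FPKM in Control and at 4.92, 3.45, 2.83, 8.40 and 5.89 FPKM in Model. Its Control values rest on an estimated 3.25 to 16.8 fragments per library and are therefore imprecise. The lowest Model mouse was well above the highest Control mouse. On the log2(FPKM + 1) scale, which understates the change of low genes, the means differed by 2.20.

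Il33 was at 2.87, 3.99, 2.34, 2.71 and 4.13 FPKM in the Control mice and at 12.78, 9.02, 13.04, 15.41 and 12.29 FPKM in the Model mice. The groups were separate, and the log2 difference was 1.69 ± 0.17 (adjusted P = 7.98e-05). Il1rl1, its receptor, was at 1.21, 1.82, 1.25, 1.08 and 0.46 FPKM in Control and at 29.27, 27.93, 32.51, 33.49 and 25.33 FPKM in Model. The Model mice lay close together, at 29.7 ± 3.34 FPKM (SD, n = 5), and the log2 difference was 3.85 ± 0.17 (adjusted P = 5.99e-07).

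Il1r2, the decoy receptor, was listed at 0 in 4 Control mice and at 0.89 FPKM in Control mouse 17. In the Model mice it was at 6.09, 3.45, 3.56, 4.23 and 4.36 FPKM. All Model mice were above all Control mice, and no fold or test is given because Control values were listed at 0.

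Il18 moved the other way. It was at 68.26, 67.67, 55.33, 98.99 and 44.57 FPKM in Control and at 38.17, 27.86, 31.58, 28.47 and 45.20 FPKM in Model. The groups overlapped only in Control mouse 50 and Model mouse 52, and the log2 difference was −0.92 ± 0.21 (adjusted P = 0.00945).

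The receptor chains Il1r1 and Il1rap stayed within the spread between mice. Il1r1 was at 3.47 ± 1.06 FPKM in Control and 4.37 ± 0.833 FPKM in Model (SD, n = 5; adjusted P = 0.319 in limma), with a 95% interval of the log2 difference from −0.14 to 0.71. Il1rap was at 3.14 ± 0.541 and 3.65 ± 0.563 FPKM (adjusted P = 0.427 in limma), with an interval from −0.14 to 0.48. The binding protein gene Il18bp was at 0.861 ± 0.564 and 1.53 ± 0.571 FPKM (adjusted P = 0.137 in limma), with an interval from 0.003 to 0.93. It did not pass the test in the main fit, but it was called as higher in 1 of 16 alternatives (adjusted P = 0.0293 in limma). A small rise is therefore left undecided.

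Il1rn did not show a direction. It was at 12.26, 36.06, 31.58, 32.76 and 16.13 FPKM in Control and at 15.98, 64.48, 17.10, 17.15 and 19.20 FPKM in Model. Model mouse 30 was far above the other 4 Model mice, and Control mice 17 and 50, the 2 with squamous markers, were the lowest of their group. The log2 difference was −0.07 ± 0.42 (adjusted P = 0.931), with an interval from −0.98 to 0.85. Without these 2 Control mice it was −0.54 (adjusted P = 0.417). Its sign turned when 1 of Control mice 37, 41 and 48 or of Model mice 23, 33 and 44 was left out.

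Without Control mice 17 and 50, Il1b (log2 difference 3.71), Il33 (1.75), Il1rl1 (3.69) and Il18 (−1.07) were again called, where 17.8% of all genes were. Il1a was then at 0.08 to 0.28 FPKM in the 3 remaining Control mice, and Il1r2 was listed at 0 in all 3.

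**Figure D2:**
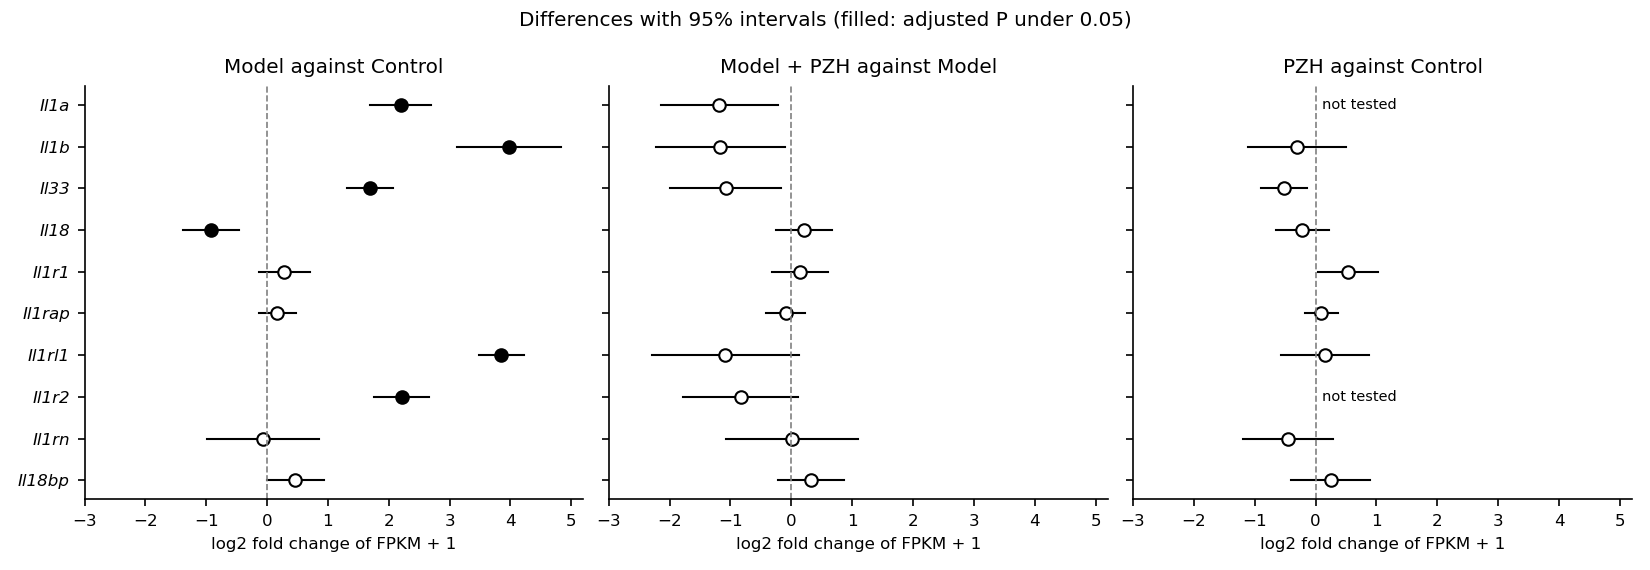
Log2 fold change of FPKM + 1 (points) with 95% intervals (lines) for the 10 members in 3 comparisons, with filled points at an adjusted P under 0.05. In Model against Control 6 points are filled. Il1a and Il1r2 passed the filter only through the Model mice, so their points and intervals there are not read as tests, which leaves 4 called members. In Model + PZH against Model and in PZH against Control no point is filled, and Il1a and Il1r2 were not tested in the latter.

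Markers of other cell types also differed between Model and Control, where 16.4% of all tested genes were called as higher and 7.23% as lower. In bulk tissue, fewer cells of a type and less RNA per cell cannot be told apart. Of the 12 neutrophil markers, 11 of which were tested, 9 were called as higher in Model against Control, 6 of them genes that passed the filter only through the Model mice. Their summed level went from 109 to 429 FPKM in Control to 334 to 867 FPKM in Model. Most of the Control sum came from Ly6g, at 80.8 to 369 FPKM there. Ly6g did not rise in Model (log2 difference −0.58, adjusted P = 0.264 in limma), nor did Sorl1 (0.04, adjusted P = 0.875). S100a9, one of the markers that rose, was at 0 to 15.1 FPKM in Control and 22.5 to 276 FPKM in Model. Mast cells are known for high ST2, and 8 of their 10 markers were called as higher, 3 of them through the Model mice alone. Their sum went from 11.2 to 18.7 FPKM to 66.4 to 298 FPKM. Of the 13 macrophage and monocyte markers 6 rose, and their sum went from 346 to 659 FPKM to 597 to 767 FPKM. 6 of the 14 colon epithelium markers fell, with sums of 5897 to 9330 FPKM in Control and 3267 to 6629 FPKM in Model. All 8 smooth muscle markers fell, and their sum went from 2282 to 5266 FPKM to 1012 to 1769 FPKM. Of the 11 tested T cell, Treg and innate lymphoid markers 7 were called as higher, 3 of them through the Model mice alone, and of the 8 B and plasma cell markers 3 rose, with sums of 1205 to 2600 FPKM in Control and 3661 to 10236 FPKM in Model. The other lists were mixed. Of the 9 fibroblast markers 3 rose and 2 fell, and of the 8 endothelial markers 4 rose. Of the 8 enteric neuron and glia markers 1 rose and 4 fell. None of the 6 tested squamous markers was called. The part of these cell types in the changes of the IL-1 family was not tested.

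The transcripts of Il1rl1 differed in level. The soluble form (Il1rl1-203 with Il1rl1-205) was at 0.99, 1.68, 0.97, 0.74 and 0.20 FPKM in Control and at 27.42, 25.73, 30, 30.91 and 19.06 FPKM in Model. The membrane form (Il1rl1-201 with Il1rl1-202) was at 0.22, 0.14, 0.28, 0.33 and 0.27 FPKM in Control and at 1.85, 2.20, 2.52, 2.58 and 6.27 FPKM in Model. Both forms were thus higher in all Model mice than in any Control mouse, and the soluble form made up 75.2% to 93.7% of the gene in the Model mice. Among single transcripts Il1rl1-203 rose by 4.03 on the log2 scale (adjusted P = 3.14e-05). Il1rl1-201 had only zeros in the Control group and passed the filter only through the Model mice, so no test of it is given. In the 5 Control mice the soluble share was 42.8% to 92.1%, at levels near 1 FPKM, and a difference in share was not tested. Of the 40 transcripts of the members 18 passed the filter in Model against Control and 10 of these were called, 9 as higher, where 6.94% of all 40464 transcripts were called. 5 of the 9 passed only through the Model mice, and of the other 13 tested transcripts 4 were higher and 1 lower. Without the filter 6 were called, and with 1 mouse left out 3 to 9 were, with 3 to 5 when it was a Model mouse.

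Il33 was made from both starts in the Model mice. The first start gave 6.62, 6.30, 10.40, 11.34 and 7.73 FPKM and the second start 5.84, 2.53, 2.61, 4.03 and 4.52 FPKM. Il33-202, from the first start, rose by 1.75 on the log2 scale (adjusted P = 0.0255) and Il33-201, from the second start, by 1.37 (adjusted P = 0.0356). In the Control and PZH mice 1 of the forms was often listed at 0 while the other carried the gene, so the division between them is uncertain at these levels.

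The intracellular form of Il1rn carried most of the gene, at 72.6% to 91.6% in Control and 58.9% to 85.3% in Model. The secreted form was at 0.71, 8.75, 1.14, 1.37 and 0.28 FPKM in Control and at 1.64, 6.69, 3.29, 3.66 and 3.41 FPKM in Model. The groups overlapped through Control mouse 37, and Il1rn-201 did not pass the test (log2 difference 0.81 ± 0.51, adjusted P = 0.423). The high Il1rn of Model mouse 30 was of the intracellular form (54.99 FPKM), whereas in Model + PZH mouse 15 the secreted form was at 30.41 FPKM and made up 62.8% of the gene. For Il18 the main transcript, Il18-204, fell by 0.97 on the log2 scale (adjusted P = 0.0285), and Il18-203 (difference −0.29) and Il18-202 (difference −0.73) did not pass the test.

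**Figure D3:**
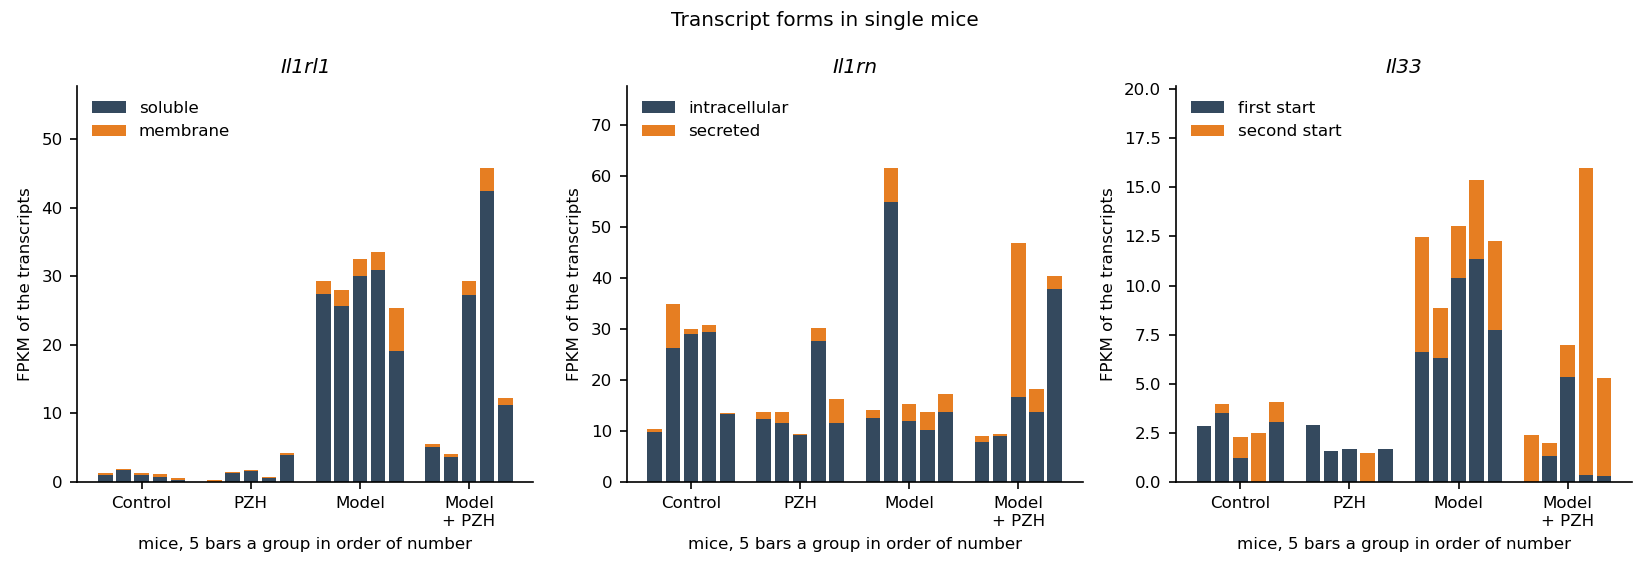
FPKM of the transcript forms of Il1rl1, Il1rn and Il33, stacked, with 1 bar per mouse in order of mouse number and 5 bars per group. The soluble form makes up most of Il1rl1 in all Model and Model + PZH mice, the secreted form of Il1rn stands out in Model + PZH mouse 15 at 30.41 FPKM, and the second start of Il33 stands out in Model + PZH mouse 35 at 15.65 FPKM.

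The comparison of Model + PZH with Model asked whether PZH altered the genes under AOM/DSS. No member passed an adjusted P under 0.05 in limma, where 1 of all 15888 tested genes (0.00629%) and 1862 genes at an unadjusted P under 0.05 did. The study used the criteria of a fold over 2 with an unadjusted P under 0.05, on transcripts with DESeq. Here the same cut-offs were applied in limma to summed FPKM + 1 per gene, so the calls are not those of the study. By these criteria Il1a, Il1b and Il33 were lower, where 2.01% of all tested genes were. The median log2 difference was −0.46 over the 10 members and −0.04 over all tested genes.

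Il1b was at 10.47, 8.89, 42.05, 53.72 and 21.79 FPKM in the Model + PZH mice numbered 2, 13, 15, 35 and 36. 3 of these were below the lowest Model mouse, and the other 2 were within the Model range. The log2 difference from Model was −1.17 ± 0.48 (adjusted P = 0.398). Il1a was at 0.31, 0.28, 2.60, 5.02 and 1.93 FPKM in the same mice, and 4 of the 5 were below the lowest Model mouse. Its log2 difference was −1.19 ± 0.43 (adjusted P = 0.365).

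Il33 was at 2.52, 2.03, 7.02, 16.23 and 5.78 FPKM, with 4 mice below the lowest Model mouse and mouse 35 above the highest (log2 difference −1.08 ± 0.41, adjusted P = 0.376). Il1rl1 was at 5.51, 4.06, 29.26, 45.87 and 12.27 FPKM, with 3 mice below the lowest Model mouse and mouse 35 above the highest (log2 difference −1.09 ± 0.55, adjusted P = 0.463). Il1r2 was listed at 0 in mouse 2 and was at 1.78, 2.78, 6.41 and 1.91 FPKM in the other 4 (log2 difference −0.83 ± 0.43, adjusted P = 0.469). The mice of the group were thus far apart for each of these genes.

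Il1a, Il1b, Il33, Il1rl1 and Il1r2 ordered the Model + PZH mice in nearly the same way. Mouse 35 was the highest for all 5 genes, mouse 15 the second highest and mouse 36 the third, and mice 2 and 13 held the last places. As a share of the Model median, mouse 35 was at 102% to 157%, mouse 15 at 52.8% to 100%, mouse 36 at 39.2% to 45.2%, mouse 13 at 5.7% to 42.1% and mouse 2 at 0% to 20.9%. The summed neutrophil markers of mice 2, 13, 15, 35 and 36 were 187, 181, 228, 510 and 380 FPKM, and their summed mast cell markers were 53.4, 42.8, 304, 207 and 57.9 FPKM. The part of these markers was not tested.

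**Figure D4:**
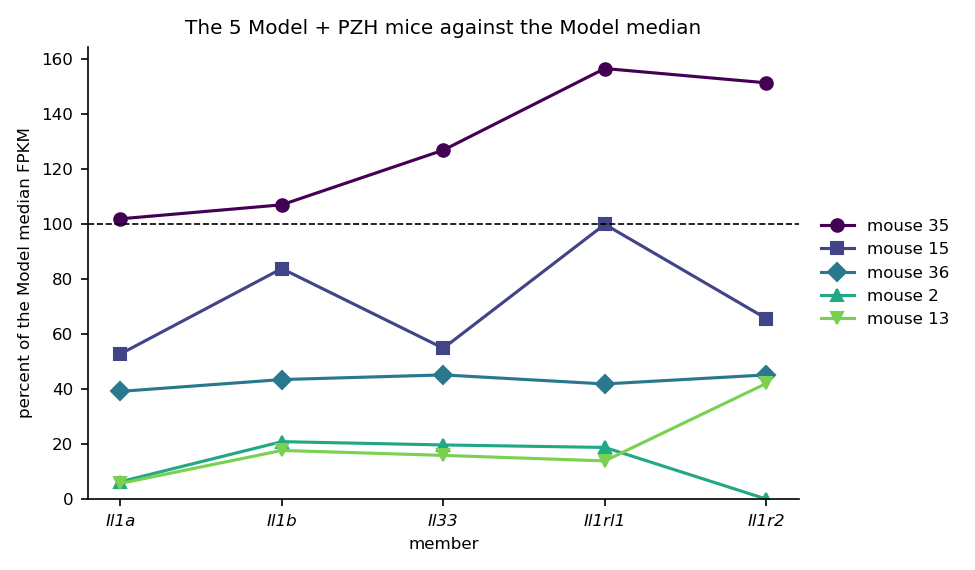
Level of the 5 members that were higher in all Model mice than in Control, in each Model + PZH mouse, as a percent of the Model median FPKM (dashed line at 100), with 1 line per mouse joining its values. Mouse 35 lies at 102% to 157%, mouse 36 at 39.2% to 45.2%, and mice 2 and 13 are the lowest for all 5 genes.

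Mouse 35 was the highest of its group for Il1a, Il1b, Il33, Il1rl1 and Il1r2, so leaving it out had to make their differences larger. The fit without mouse 35 shows how far a single mouse carries the result and is no test of PZH. Il33 then passed the threshold (log2 difference −1.44 ± 0.30, adjusted P = 0.0272 in limma with n = 4), where 5.17% of all 15639 tested genes did. Il1a (−1.50, adjusted P = 0.0532), Il1b (−1.48, adjusted P = 0.0837), Il1rl1 (−1.51, adjusted P = 0.0834) and Il1r2 (−1.16, adjusted P = 0.0883) did not pass it. All 5 were then past the fold criteria, and with Model mouse 44 or Model + PZH mouse 2 or 13 left out instead none was.

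The other 5 members did not pass the test between Model + PZH and Model. Il18 was at 38.70, 32.66, 33.02, 33.61 and 64.27 FPKM (log2 difference 0.21 ± 0.21, adjusted P = 0.715). Il18bp was at 1.17, 2.73, 2.41, 1.19 and 3.85 FPKM (0.32 ± 0.24, adjusted P = 0.620). Il1rn was at 11.56, 11.79, 48.43, 20.74 and 42.29 FPKM (0.00 ± 0.49, adjusted P = 0.999), with a 95% interval from −1.08 to 1.09 that leaves room for a change of 2-fold either way. The receptor chains had narrower intervals, from −0.32 to 0.60 for Il1r1 and from −0.41 to 0.22 for Il1rap.

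Single transcripts gave no call in this comparison, with 19 transcripts of the members tested and 0.0219% of all 41170 transcripts called. The first start of Il33 was listed at 0 in Model + PZH mouse 2 and was at 1.29, 5.35, 0.36 and 0.31 FPKM in mice 13, 15, 35 and 36. The second start was at 2.39, 0.69, 1.64, 15.65 and 4.98 FPKM. In mice 2, 35 and 36 the second start thus made up 94.8%, 96.4% and 86% of the gene, against 20% to 45.7% in the Model mice. The share was not tested, and the division of reads between transcripts of 1 gene is an estimate.

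The comparison of PZH with Control asked what the formula did without AOM/DSS. None of the 8 tested members was called in limma, where 0.00645% of 15506 genes were (1 gene, and 1370 genes at an unadjusted P under 0.05), and Il1a and Il1r2 were too low to be tested. Il33 was at 2.92, 1.59, 1.80, 1.64 and 1.71 FPKM in the PZH mice, and 4 of the 5 were below the lowest Control mouse (log2 difference −0.52 ± 0.17, adjusted P = 0.512). Il1r1 was at 3.71, 7.60, 4.03, 5.39 and 6.68 FPKM (0.53 ± 0.22, adjusted P = 0.546). Il1r2 was listed at 0 in all 5 PZH mice, and Il1a was at 0.18, 0.34, 0.25, 0.22 and 0.19 FPKM.

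Il1b was at 2.17, 0.66, 1.65, 1.72 and 2.33 FPKM in the PZH mice, and Il1rl1 was at 0.31, 1.42, 1.72, 0.65 and 4.14 FPKM. Both overlapped with Control (adjusted P = 0.828 and 0.908). Il18 was at 46.88, 58.71, 51.12, 73.26 and 51.22 FPKM, inside the Control range. Il1rap (3.38 ± 0.270 FPKM) and Il18bp (1.32 ± 1.18 FPKM, SD, n = 5) also overlapped with Control. Il1rn was at 16.16, 15.64, 10.82, 31.06 and 16.70 FPKM in the PZH mice. These overlapped with Control only through Control mice 17 and 50, and the other 3 Control mice were above all PZH mice. The log2 difference of Il1rn was −0.45 (adjusted P = 0.698) with all mice and −0.93 (adjusted P = 0.622) without these 2, and that of Il1b moved from −0.31 to −0.57 (adjusted P = 0.796).

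Model + PZH mice were also set against the groups without AOM/DSS. Against Control, Il1b (log2 difference 2.81 ± 0.54, adjusted P = 0.0280) and Il1rl1 (2.77 ± 0.55, adjusted P = 0.0310) were called of 9 tested members, where 1.55% of all genes were called as higher. Without Control mice 17 and 50 neither was called, where 0.191% of all genes were. Neither was called without Control mouse 17, 48 or 50 or Model + PZH mouse 15 alone, and 1 member was called without Control mouse 41 or Model + PZH mouse 35 or 36. Against PZH, Il1b was called (3.11 ± 0.46, adjusted P = 0.0156) of 8 tested members, where 1.74% of all genes were called as higher, and Il1rl1 just missed the threshold (2.61 ± 0.62, adjusted P = 0.0539). These comparisons share their mice with those above.

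The difference of the PZH effect with and without AOM/DSS was tested in 1 model over all 20 mice. None of the 10 members was called, where 0.0118% of all genes were (2 genes, and 1749 genes at an unadjusted P under 0.05). Il1a and Il1r2 reached 0.5 FPKM in 1 Control mouse each and in 0 PZH mice. They passed the filter through the AOM/DSS groups, where they are high, so their results are no test. For Il1a the log2 difference of −1.15 is a description only. Among the other members the lowest adjusted P was that of Il1rl1 (log2 difference −1.24 ± 0.68, adjusted P = 0.542 in limma).

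Ratios between a cytokine or receptor and its counterpart were computed per mouse, with 0.1 FPKM added to both, and tested by a two-sided exact permutation test with adjustment over 12 tests. The smallest P that 5 against 5 mice allow is 0.00794. Without the addition, the ratio of Il1b to its antagonist Il1rn was 0.0259 to 0.187 in Control and 0.504 to 4.28 in Model. All Model mice were above all Control mice (exact permutation P = 0.00794, adjusted P = 0.0238). In the Model + PZH mice it was 0.515 to 2.59, and the log2 difference from Model was −1.21 (exact permutation P = 0.151, adjusted P = 0.259).

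The ratio of the decoy Il1r2 to the signalling receptor Il1r1 was 0.818 to 1.202 in Model. Both receptors were thus at about the same level there. In Control the ratio was 0 to 0.221, with Il1r2 listed at 0 in 4 of the 5 mice. No test of this ratio against Control is given, because the added 0.1 FPKM sets those values. The adjustment over 12 tests still includes it. In Model + PZH the ratio was 0, 0.627, 0.651, 0.887 and 0.327 (log2 difference from Model −1.72, exact permutation P = 0.0238, adjusted P = 0.0571). The value of 0 in mouse 2 is a gene listed at 0, and without that mouse the difference was −0.73.

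The ratio of Il33 to its receptor Il1rl1 fell from 1.87 to 8.91 in Control to 0.323 to 0.485 in Model (exact permutation P = 0.00794, adjusted P = 0.0238). It was 0.240 to 0.4995 in Model + PZH, and the difference from Model was −0.08 on the log2 scale (exact permutation P = 0.762, adjusted P = 0.831). The Model + PZH mice thus spanned the Model range of this ratio. The ratio of Il18 to its binding protein Il18bp was 37.4 to 172 in Control and 12.7 to 33 in Model (exact permutation P = 0.00794, adjusted P = 0.0238), and 12 to 33.1 in Model + PZH (exact permutation P = 0.492, adjusted P = 0.590). In PZH against Control the ratios of Il1b, Il18 and Il33 did not pass the adjusted threshold (adjusted P from 0.429 to 0.873, exact permutation). No test of Il1r2 to Il1r1 is given there, since Il1r2 was listed at 0 in all 5 PZH mice.

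**Figure D5:**
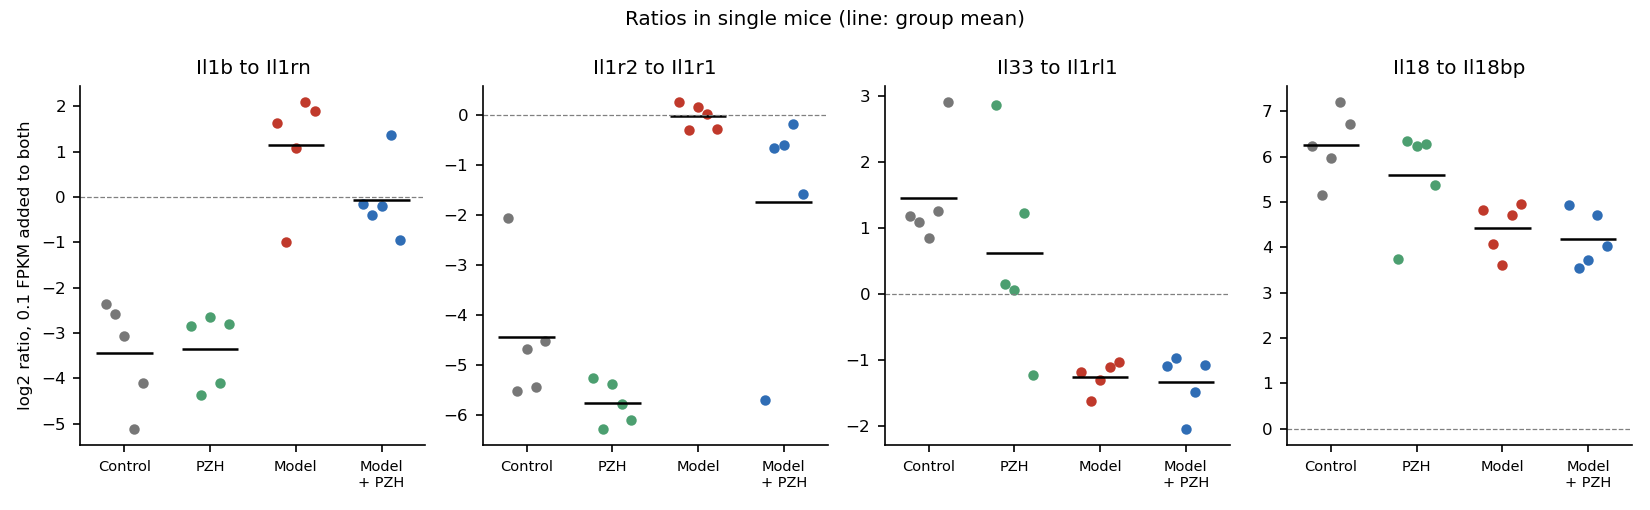
Log2 ratio of 4 gene pairs, with 0.1 FPKM added to both genes, in single mice (points) with the group mean (line) and a dashed line at equal levels. In the Model mice Il1b to Il1rn is higher than in Control, Il33 to Il1rl1 and Il18 to Il18bp are lower, and Il1r2 to Il1r1 lies near 0, at −0.02 on average. Of the Model + PZH mice, mouse 2, with Il1r2 listed at 0, lies apart in that pair.

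The rest of the pathway was read from lists of 92 further genes, of which 72 could be tested in Model against Control. 35 were called as higher and 5 as lower, and 9 of the 35 passed the filter only through the Model mice. Over all genes 16.4% were higher and 7.23% lower. Of the 21 tested genes known to respond to IL-1, 17 were called as higher, 3 of them through the Model mice alone, and none as lower. Lcn2, an iron-binding antimicrobial protein (5.13 ± 0.36, adjusted P = 7.40e-06), Cxcl5 (4.64 ± 0.44, adjusted P = 5.16e-05) and Cxcl2 (4.62), both chemokines that attract neutrophils, had the largest differences of the tested genes. Cxcl2 reached 0.5 FPKM in none of the Control mice and entered the test only through the Model mice. Lcn2 also stands in the neutrophil marker list.

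Of the 11 tested genes that respond to IL-33 or IL-18, 7 were called as higher, 1 of them through the Model mice alone, and 1 fell. The one that fell was Retnla, a macrophage protein of type 2 immunity (−2.51 ± 0.44, adjusted P = 0.00237). Of the 15 tested genes for processing and release 2 were called as higher, 1 of them through the Model mice alone, and 2 fell, shares near those over all genes. Those that fell were the inflammasome sensor Nlrp6 (−1.04 ± 0.19, adjusted P = 0.00310) and the inflammasome adaptor Pycard (−0.78 ± 0.19, adjusted P = 0.0139). Of the 20 signalling genes 6 were called as higher, 1 of them through the Model mice alone, and 2 fell. The chains of the IL-18 receptor passed the filter only through the Model mice and are described with no test: Il18r1 was at 0.228 to 0.432 FPKM in Control and 0.561 to 1.83 FPKM in Model, and Il18rap was at 0.156 to 0.557 and 1.17 to 2.18 FPKM. The same holds for Il1f9, which encodes IL-36γ, at 0 to 1.18 FPKM in Control and 2.14 to 7.77 FPKM in Model.

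In Model + PZH against Model none of the 74 tested genes of these lists was called, and their median was −0.16 against −0.04 over all genes. Cxcl2 (−2.64 ± 0.62), Lcn2 (−2.36 ± 0.77) and Cxcl5 (−1.99 ± 0.64) shared an adjusted P of 0.356. Nlrp6 was at 0.71 ± 0.28 (adjusted P = 0.385), Retnla at 0.74 ± 0.47 (adjusted P = 0.553) and Pycard at 0.07 ± 0.13 (adjusted P = 0.868). Of the 12 neutrophil markers, 11 of which were tested here, 8 were lower by the fold criteria, where 2.01% of all tested genes were. None of them passed the adjusted threshold. In Model against Control 6 markers of this list had passed the filter only through the Model mice, which limits the count.

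The genes most like each member over the 20 mice were sought among 14139 genes with a mean of at least 1 FPKM. The points share the group differences, so the correlation r of the deviations from the group means is given as well, and both are descriptions. Il1b and Il1rl1 were both most like Mmp7, a matrix metalloproteinase (r = 0.97 for both, and 0.77 and 0.82 within groups). Il1a was most like Tnfrsf11b, the decoy receptor osteoprotegerin (0.98, and 0.94 within groups), Il33 was most like Nfe2l3 (0.96, and 0.87 within groups) and Il1r2 was most like Inhbb, a subunit of activin B (0.96, and 0.84 within groups).

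The next genes were Defa23 and Padi4 for Il1a, Wfdc18 and Tnfrsf1b for Il1b, Scgb2b15 and Defa24 for Il1rl1, Mmp12 and Rnase1 for Il33, and Sema7a and Lcn2 for Il1r2, with r from 0.95 to 0.98. The Defa genes are near-identical copies whose reads can be split between them. The other members had looser neighbours: Il18 was most like Tmlhe (0.85), Mrps6 and Yipf1, and Il18bp was most like B2m, the light chain of class I molecules (0.84), Map3k4 and Slfn8. Il1rap (Ctbs at 0.76, Hace1, Ints8), Il1rn (Lztfl1 at 0.72, Zfp959, Gm16286) and Il1r1 (Fnip1 at 0.70, Rilp, Zc3h11a) had the weakest likeness.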

How the data were processed

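RNA was sequenced from the colon of 20 mice, 1 library per mouse and 5 mice per group, after removal of ribosomal RNA. The authors aligned the reads to mm10 with HISAT2 and assembled and quantified transcripts with StringTie, and the deposited files hold FPKM per transcript. Each file lists 118434 transcripts, of which 96182 are Ensembl transcripts and 22252 were assembled by the authors and carry no gene name. Of the Ensembl transcripts 96032 were matched to GENCODE M21 and summed to 32991 genes, and the assembled ones were left out of the sums.

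Groups were compared 2 at a time with limma 3.58.1 (R 4.3.3) with a trend of the variance in mean level, on log2(FPKM + 1). Genes entered a comparison when 5 or more of its 10 mice reached 0.5 FPKM, with Benjamini-Hochberg adjustment over all genes tested. A gene is said to pass through the Model mice alone when at most 1 Control mouse reached 0.5 FPKM. A call is an adjusted P under 0.05, and the criteria of a fold over 2 with an unadjusted P under 0.05 are given separately. Ratios were tested by exact permutation over mice with SciPy 1.17.1. The test was checked on simulated data. The 10 members and the pathway and marker lists were chosen with earlier results of these data known. Of the pathway lists, the text names the 3 called genes that rose most and the 3 that fell most in Model against Control, with further names chosen after their values were seen, and for likeness the 3 genes with the highest r. The mice of 1 group are separate animals. Depth was estimated from the steps in low FPKM values, of which 40.7% to 45.3% per library lay within 0.02 of a whole number of fragments. No batch is named in the labels. Alternatives were a pseudocount of 0.1, no filter, a mean of at least 1 FPKM, median-of-ratios scaling, 1 model over all 20 mice, and each mouse left out in turn. Leaving out both Control mice with squamous markers was added after the data were seen.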

Additional observations from a re-analysis of the deposited data

Results flagged for a closer look

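Among the 39 sets of 5 values per member and group that could be checked, 5 held a mouse far from the other 4 of its group. Normally distributed values would give about 1.95 (1 in 20). The FPKM were not shown to be normal and all 5 flagged values were high ones, so no excess can be read from this. Il1rn was at 64.48 FPKM in Model mouse 30, with the other 4 Model mice between 15.98 and 19.20 FPKM, and most of it was the intracellular form. Il1r2 was at 0.89 FPKM in Control mouse 17, while it was listed at 0 in the other 4, so that it had to be flagged. That mouse also held the highest sum of squamous epithelium markers, 535 FPKM. Il33 was at 2.92 FPKM in PZH mouse 8, with the other 4 PZH mice between 1.59 and 1.80 FPKM. Il18bp was at 3.39 FPKM in the same mouse, with the other 4 between 0.58 and 1.14 FPKM. Il18 was at 64.27 FPKM in Model + PZH mouse 36, with the other 4 between 32.66 and 38.70 FPKM.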

How the results depend on the processing

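Of the log2 differences of single members recomputed under the alternatives, 153 of 160 kept direction and call in Model against Control, 142 of 150 in Model + PZH against Model, 125 of 128 in PZH against Control, 115 of 138 in Model + PZH against Control and 111 of 120 in Model + PZH against PZH. The 160 include 16 each for Il1a and Il1r2, all of which kept direction and call. These 2 genes passed the filter only through the Model mice, so their share says nothing about stability. The counts of members called against Control in Model + PZH were the least stable, with 0 without the filter, 4 in 1 model over all 20 mice, 0 without Control mice 17 and 50, and 0 to 3 with 1 mouse left out. Against PZH there were 3 in 1 model over all 20 mice and 1 to 2 with 1 mouse left out. In Model + PZH against Model, leaving out 1 mouse gave 0 to 1 calls (1 without mouse 35), 0 to 5 members past the fold criteria and 0 to 1 called transcripts (1 without mouse 15). Called member transcripts in Model against Control were 6 without the filter and 3 to 9 with 1 mouse left out, with 3 to 5 when it was a Model mouse. With 1 mouse left out, differences that turned sign ranged from −0.12 to 0.37 (Il1rl1) and −0.014 to 0.41 (Il18bp) in PZH against Control, and for Il1rn from −0.43 to 0.081 in Model against Control, −0.26 to 0.37 in Model + PZH against Model and −0.33 to 0.17 in Model + PZH against Control. In Model + PZH against PZH they ranged from −0.23 to 0.048 (Il1r1) and −0.085 to 0.044 (Il1rap). A pseudocount of 0.1 turned Il1rn in Model + PZH against Model to −0.00026, and without Control mice 17 and 50 Il1rl1 in PZH against Control was −0.00088. For the ratios, Il1b to Il1rn in PZH against Control ranged from −0.32 to 0.37, Il1r2 to Il1r1 in Model + PZH against Model from −2.11 (without mouse 35, past the adjusted threshold) to −0.73, and Il33 to Il1rl1 in the same comparison from −0.17 to 0.10, or 0.0045 with 1 FPKM added. The cause of these changes was not tested. Median-of-ratios scaling moved the median of all genes in Model against Control from 0.09 to 0.00. No paired analysis was possible because the mouse numbers of the groups are all different.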
